A study of Homo sapiens with 4 samples.

Results

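The messengers described here are 10 of glucose uptake and glycolysis, namely SLC2A1, HK1, PFKP, ALDOA, GAPDH, PGK1, ENO1, PKM, LDHA and LDHB. They were chosen by gene symbol, and each has 1 row among the 18276 gene rows of the count and FPKM tables. RNA recovered with an SF3B6 antibody (SF3B6 IP, 2 libraries) was set against input RNA (Input, 2 libraries). The design text calls the replicates biological. All 4 libraries came from MDA-MB-231, a triple-negative human breast cancer line with mesenchymal features, which had been irradiated once at 400 mJ/cm2, lysed, and digested with micrococcal nuclease. The cells carried no allele or knockdown named in the labels. The cell line field ends in a different digit in each sample, while all titles name MDA-MB-231. SF3B6 belongs to SF3b, the U2 snRNP component that engages the intron branch point, and the comparison asks which transcripts the antibody recovers. No library of the control IgG named in the protocols was used here, so recovery that does not depend on SF3B6 is contained in every IP value.

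Glycolysis splits glucose to pyruvate in the cytosol. SLC2A1 encodes GLUT1, which brings glucose into the cell, and hexokinase (HK1) traps it by phosphorylation. Phosphofructokinase (PFKP) commits the sugar to the pathway, aldolase (ALDOA) cleaves it, and GAPDH, PGK1, ENO1 and PKM carry the products down to pyruvate with a gain of ATP. Lactate dehydrogenase, built from LDHA and LDHB subunits, converts pyruvate to lactate and back. Many tumours keep a high flux through this pathway even with oxygen present, and breast cancer lines of the triple-negative kind are known for it.

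Counts assigned to genes came to 55492 and 30431 in SF3B6 IP 1 and 2, against 317190 and 519836 in Input 1 and 2. With 0 counts observed, the limit of 3 counts lies at 54.1 and 98.6 CPM (counts per 1000000) in the IP libraries, against 9.46 and 5.77 CPM in the inputs. On the normalised scale used below for single genes, it lies at 66.1 and 131 CPM in the IP libraries. Wilson and exact intervals and the floors cover counting error only, and no molecular identifiers are named. Intervals of log2 fold changes come from the edgeR fit, which also estimates the spread between libraries. Of 6 markers of the line, VIM, CD44, LMNA, AXL and CAV1 were well counted in both inputs, while SPARC had 0 and 2 counts there. Of 6 markers that the line is known to lack or hold at low level, CDH1 and EPCAM had 1 to 4 counts in an input, GATA3 had 4 and 15, and ESR1, PGR and KRT20 have no row. For blood cells, 4 of 8 markers have a row, with 1 to 9 counts in all per library. The groups differ in depth, so depth and antibody recovery cannot be told apart.

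Together the 10 members held a smaller share of the IP libraries than of the inputs. They took 0.312% (Wilson 95% interval 0.269 to 0.362) of the counts in SF3B6 IP 1 and 0.250% (0.200 to 0.312) in SF3B6 IP 2, against 0.486% (0.462 to 0.510) in Input 1 and 0.484% (0.465 to 0.503) in Input 2. In counts that was 173 and 76 in the IP libraries and 1540 and 2516 in the inputs. Nuclear protein-coding genes as a whole also held less of the IP libraries, at 70.0% and 59.3% against 77.7% and 82.5% in the inputs. Taken as a share of these nuclear protein-coding counts, the members stood at 0.445% and 0.421% in IP, against 0.625% and 0.586% in input. The IP and input values did not overlap on either base. Some other lists also held less of the IP libraries, and some did not. The listed other glycolytic enzymes took 0.106% and 0.0756% in IP, against 0.0902% and 0.0939% in input, so the groups overlapped. They overlapped as well for regulators of glycolytic flux, the pyruvate dehydrogenase complex and the citric acid cycle. Other transporters and hexokinases, the pentose phosphate pathway, and gluconeogenesis and glycogen lay lower in both IP libraries. The 6 markers of the line took 0.386% and 0.365% in IP, against 0.513% and 0.567% in input. The 7 genes of lactate and pyruvate transport took 0.204% and 0.187% in IP, against 0.306% and 0.317% in input. A lower share in such bulk lysates does not tell fewer molecules recovered per cell from fewer cells contributing.

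Of the 10 messengers, 8 had enough counts to be tested, 1 was lower in IP and 0 were higher (edgeR's quasi-likelihood test over all 3668 tested genes, Benjamini-Hochberg adjusted p under 0.05). The one that passed was SLC2A1. Over all tested genes, 50 were lower (1.36%) and 99 were higher (2.70%). Both IP libraries lay below both inputs for 3 of the 8 members, SLC2A1, ENO1 and PKM, against 28.5% of all tested genes. Both lay above for 1 of the 8, LDHA, against 20.9%. The median log2 fold change, IP minus input, was -0.36 over the 8 members, -0.06 over all 3668 genes and -0.08 over 3470 nuclear protein-coding genes. The log2 fold change was below 0 for 6 of the 8 members, against 53.4% of all tested genes. TMM scaling sets these changes relative to the bulk of the tested genes.

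**Figure D1:**
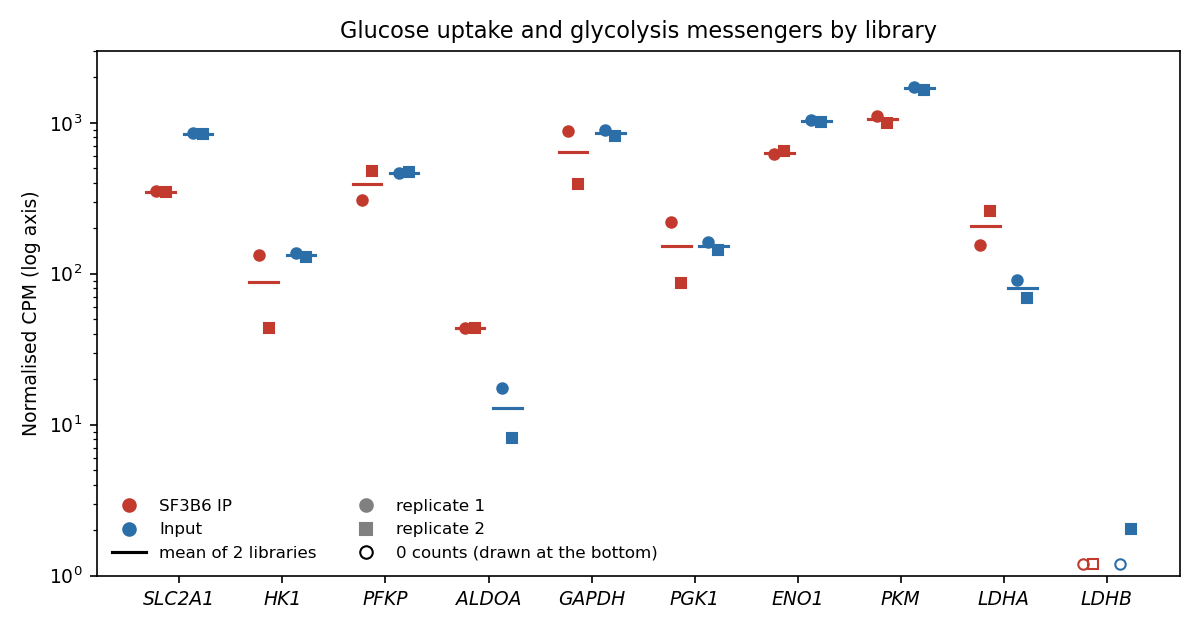
Normalised CPM of each member on a log axis, with SF3B6 IP in red left of Input in blue, circles for replicate 1, squares for replicate 2 and bars for the mean of 2 libraries; open symbols at the bottom stand for 0 counts. Both IP points lie below both inputs for SLC2A1, ENO1 and PKM and above them for LDHA and for ALDOA. ALDOA was not tested and had 1 to 5 counts in each library. The IP points of HK1, GAPDH and PGK1 lie far apart, those of HK1 and PGK1 on 1 to 10 counts a library.

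The one member that passed the test encodes the glucose transporter GLUT1. SLC2A1 (ENSG00000117394.24, GRCh38 chromosome 1, 42925353 to 42958868) had 16 and 8 counts in the IP libraries against 244 and 411 in the inputs. On the normalised scale, which is CPM after TMM scaling over the tested genes, it stood at 352 and 349 CPM in IP, against 858 and 838 CPM in input. The values of each pair were close and the groups were far apart. The IP values rest on 16 and 8 counts, so their closeness says little about precision. SLC2A1 fell by 1.27 ± 0.27 (SE) on the log2 scale (adjusted p = 0.00302 with edgeR), a 2.41-fold lower recovery, with a 95% interval of the log2 fold change from -1.82 to -0.72. It ranked 248th lowest of the 3668 tested genes. Its call held in 10 of 13 alternative settings, whose adjusted p ran from 1.37e-07 to 0.0716. The 10 include the 3 settings built on the FPKM table, in which 45.7% to 62.0% of all tested genes were lower. The adjusted p of 1.37e-07 came from 1 of these, limma on log2(FPKM + 1). SLC2A1 missed the threshold without SF3B6 IP 1, without Input 2 or with DESeq2 (adjusted p = 0.0716).

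SLC2A6, another sugar transporter, drew 8 and 2 counts in IP, against 56 and 91 in input. It stood at 176 and 87.1 CPM in IP against 197 and 185 CPM in input. Its log2 fold change of -0.38 ± 0.46 did not pass (edgeR adjusted p = 0.785). A pseudogene of another family, ATP6V0CP4, lies within SLC2A1 (chromosome 1, 42952263 to 42952672) and had 1 and 0 counts in IP, against 2 and 3 in input.

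Hexokinase messengers were thinly covered in IP. HK1 (ENSG00000156515.24, chromosome 10, 69270000 to 69401882), the widest of the 10 genes at 131883 bases, drew 6 and 1 counts in IP, against 39 and 63 in input. That gave 132 and 43.6 CPM in IP, against 137 and 128 CPM in input. SF3B6 IP 1 lay within the inputs. The value of SF3B6 IP 2 was lower but rests on 1 count. The limit of 3 counts in that library, 131 CPM, is about the input level, so its distance from the inputs cannot be judged. The log2 fold change was -0.36 ± 0.56 (edgeR adjusted p = 0.849, interval -1.51 to 0.78). It was -1.80 without SF3B6 IP 1 and -0.09 without SF3B6 IP 2. HK2, the hexokinase that many tumours induce, drew 4 and 2 counts in IP, against 49 and 66 in input. It stood at 88.1 and 87.1 CPM in IP against 172 and 135 CPM in input. Its log2 fold change of -0.76 ± 0.58 did not pass (edgeR adjusted p = 0.564).

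Phosphofructokinase messengers showed no separation of the groups. PFKP (ENSG00000067057.18, chromosome 10, 3067548 to 3136805), the platelet-type subunit, drew 14 and 11 counts in IP, against 133 and 230 in input. It was at 308 and 479 CPM in IP, against 468 and 469 CPM in input, with a log2 fold change of -0.35 ± 0.29 (edgeR adjusted p = 0.597, interval -0.94 to 0.23). PFKL, the liver-type subunit, stood at 528 and 218 CPM in IP, against 264 and 310 CPM in input. The fitted value was 0.53 ± 0.31 (adjusted p = 0.409), and it turned to -0.64 without SF3B6 IP 1, the library that held 24 of its 29 IP counts.

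GPI, TPI1 and PGAM1 complete the steps between the members. GPI, which turns glucose 6-phosphate to the fructose form, was at 0.10 ± 0.37 on the log2 scale (edgeR adjusted p = 0.951). TPI1, which interconverts the triose phosphates, was at 0.10 ± 0.39 (adjusted p = 0.956). PGAM1, the phosphoglycerate mutase before enolase, drew 2 and 3 counts in IP and was at -0.11 ± 0.70 (adjusted p = 0.972). All 3 lay near the median of tested genes. The sign of GPI and TPI1 turned negative with library totals (-0.15 for both) and with upper quartile scaling (-0.04 for both), and that of PGAM1 turned positive without SF3B6 IP 1 (0.51).

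ALDOA and LDHB could not be assessed. ALDOA (ENSG00000149925.22, chromosome 16, 30064279 to 30070420) drew 2 and 1 counts in IP, against 5 and 4 in input. The ratio of its pooled counts, scaled by library totals, was 3.25 with an exact 95% interval from 0.565 to 13.0. RefSeq places a second protein-coding gene, LOC112694756 (chromosome 16, 30053151 to 30070414), over nearly the whole of ALDOA, and lists ALDOA among its synonyms. No row of the tables has that symbol. How reads shared by overlapping genes were assigned was not given in the sources used here, so the ALDOA row may not hold all aldolase A reads. For LDHB (ENSG00000111716.14, chromosome 12, 21635342 to 21657842) the only count was 1 in Input 2. The IP floors lie far above that 1.92 CPM in Input 2, so its recovery was not detectable at this depth.

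GAPDH, which oxidises glyceraldehyde 3-phosphate, varied more between the IP libraries than between the groups. GAPDH (ENSG00000111640.15, chromosome 12, 6534517 to 6538371) drew 40 and 9 counts in IP, against 256 and 398 in input, or 881 and 392 CPM in IP, against 901 and 811 CPM in input. SF3B6 IP 1 lay within the inputs and SF3B6 IP 2 at less than either. The log2 fold change was -0.27 ± 0.24 (edgeR adjusted p = 0.654, interval -0.76 to 0.23). Leaving out SF3B6 IP 1 moved it to -1.33 and leaving out SF3B6 IP 2 to -0.05, neither past the threshold (adjusted p = 0.123 and 0.961).

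PGK1, the first ATP-forming enzyme of the pathway, also differed between the IP libraries, but on too few counts to judge that spread. PGK1 (ENSG00000102144.15, chromosome X, 78104248 to 78129295) drew 10 and 2 counts in IP, against 46 and 70 in input. It stood at 220 and 87.1 CPM in IP, against 162 and 143 CPM in input, so the IP libraries lay on either side of the inputs. Its log2 fold change of 0.22 ± 0.47 (edgeR adjusted p = 0.889) was -0.996 without SF3B6 IP 1 and 0.46 without SF3B6 IP 2.

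The messengers of the last steps before pyruvate were lower in both IP libraries but did not pass. ENO1 (ENSG00000074800.16, chromosome 1, 8861000 to 8878686), enolase, drew 28 and 15 counts in IP, against 297 and 498 in input. It was at 617 and 654 CPM in IP, against 1045 and 1015 CPM in input, with a log2 fold change of -0.71 ± 0.23 (edgeR adjusted p = 0.0854, interval -1.18 to -0.23). PKM (ENSG00000067225.19, chromosome 15, 72199029 to 72231591), pyruvate kinase, was the member with the most counts in every library, at 50 and 23 in IP and 494 and 807 in input. It stood at 1101 and 1002 CPM in IP, against 1738 and 1645 CPM in input, with a log2 fold change of -0.67 ± 0.21 (edgeR adjusted p = 0.0739, interval -1.10 to -0.23). In both genes each pair lay closer together than the groups did.

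For these 2 genes the side of the threshold changed with the scaling. With library totals ENO1 and PKM passed (adjusted p = 0.0262 and 0.0223), as they did with upper quartile scaling (0.0385 and 0.0327). They passed in 6 of 13 alternatives each, with adjusted p up to 0.434 for ENO1 and 0.440 for PKM. With the 3 settings built on the FPKM table HK1, PFKP and GAPDH passed as well. Members lower in IP numbered 3 with library totals (2.45% of all genes tested), 3 with upper quartile scaling (1.88%), 3 with no count filter (0.892%) and 6 with the totals behind the FPKM table (57.2%). They numbered 7 with limma on log2(FPKM + 1) (62.0%) and 6 on log2(FPKM + 0.1) (45.7%). SLC2A1 alone was lower with a minimum of 50 counts in 2 libraries (2.24%), a replicate block (0.600%), without SF3B6 IP 2 (1.13%) and without Input 1 (0.790%). The count was 0 without SF3B6 IP 1 (0.238%), without Input 2 (0.410%) and with DESeq2 (0.0984%). PKM yields the M1 and M2 forms by a choice between exclusive exons, and counts per gene do not separate them.

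LDHA was the tested member with both IP libraries above both inputs, and PGK1 was the other with a log2 fold change above 0. LDHA (ENSG00000134333.14, chromosome 11, 18394563 to 18408425) drew 7 and 6 counts in IP, against 26 and 34 in input. It stood at 154 and 261 CPM in IP, against 91.5 and 69.3 CPM in input, and both IP libraries lay above both inputs. The log2 fold change was 1.29 ± 0.52 (interval 0.24 to 2.34) and did not pass over all genes (edgeR adjusted p = 0.183). It ranked 165th highest of the 3668 tested genes. In none of the 12 alternatives in which it was tested did it pass, with adjusted p from 0.238 to 0.841. It was -0.30 with the library totals behind the FPKM table, where the median of tested genes was -1.65.

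Lactate leaves the cell with protons through the carrier MCT4, encoded by SLC16A3, which needs the membrane chaperone basigin, encoded by BSG. BSG drew 42 and 23 counts in IP, against 466 and 793 in input, and stood at 925 and 1002 CPM in IP, against 1640 and 1616 CPM in input. BSG fell by 0.77 ± 0.22 on the log2 scale, with an adjusted p of 0.0334 in edgeR. In the 3 settings built on the FPKM table, 45.7% to 62.0% of all tested genes were lower. The BSG call held in these, and in 7 of 13 alternatives in all. Leaving out SF3B6 IP 1, Input 1 or Input 2 ended it (adjusted p = 0.123, 0.287 and 0.280), as did DESeq2 (0.217), a replicate block (0.142) or a minimum of 50 counts in 2 libraries (0.115). SLC16A3 stood at 1519 and 1394 CPM in IP, against 1738 and 1722 CPM in input, a log2 fold change of -0.23 ± 0.20 that did not pass (adjusted p = 0.625).

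**Figure D2:**
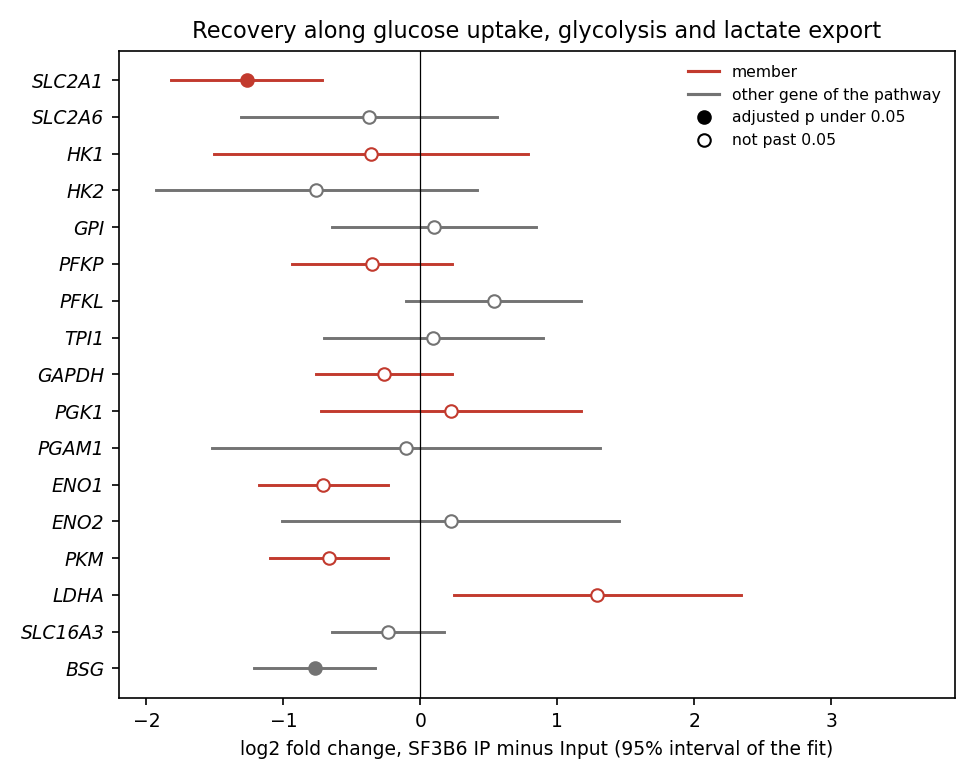
Log2 fold change, SF3B6 IP minus Input, of members (red) and other genes (grey), from glucose entry at the top to lactate export at the bottom, with 95% intervals of the edgeR fit; filled points have an adjusted p under 0.05. SLC2A1 and BSG are filled, SLC2A6 and SLC16A3 beside them are open, and LDHA is the member farthest to the right.

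The make-up of the 10 messengers within each library needs no scaling between libraries. SLC2A1 made up 9.25% (Wilson 95% interval 5.77 to 14.5) and 10.5% (5.43 to 19.4) of the member counts in IP, against 15.8% (14.1 to 17.8) and 16.3% (14.9 to 17.8) in input. LDHA made up 4.05% (1.97 to 8.12) and 7.89% (3.67 to 16.2) in IP, against 1.69% (1.15 to 2.46) and 1.35% (0.969 to 1.88) in input. The groups did not overlap for either gene on this base, though the intervals did in part. They did not overlap for PKM or ALDOA either. The share of all genes that separate on this base was not computed. On normalised CPM, both IP libraries lay below both inputs for 28.5% of all tested genes and above for 20.9%, so such separation was common. ALDOA made up 1.16% and 1.32% in IP, against 0.325% and 0.159% in input, on 1 to 5 counts a library. For SLC2A1 the interval of SF3B6 IP 1 reached into that of Input 1, and the interval of SF3B6 IP 2 contained those of both inputs. For LDHA the interval of SF3B6 IP 1 overlapped that of Input 1, and that of SF3B6 IP 2 overlapped neither.

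ENO1 and PKM held similar parts of the member counts in both groups, though both IP values of PKM lay below both inputs. ENO1 made up 16.2% and 19.7% in IP, against 19.3% and 19.8% in input, and PKM 28.9% and 30.3% in IP, against 32.1% in either input. GAPDH made up 23.1% and 11.8% in IP, against 16.6% and 15.8% in input. Per count of PKM there were 0.320 and 0.348 counts of SLC2A1 in IP, against 0.494 and 0.509 in input. For LDHA the ratio was 0.140 and 0.261 in IP, against 0.0526 and 0.0421 in input. These ratios rest on 8 to 16 IP counts of SLC2A1 and 6 to 7 of LDHA.

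**Figure D3:**
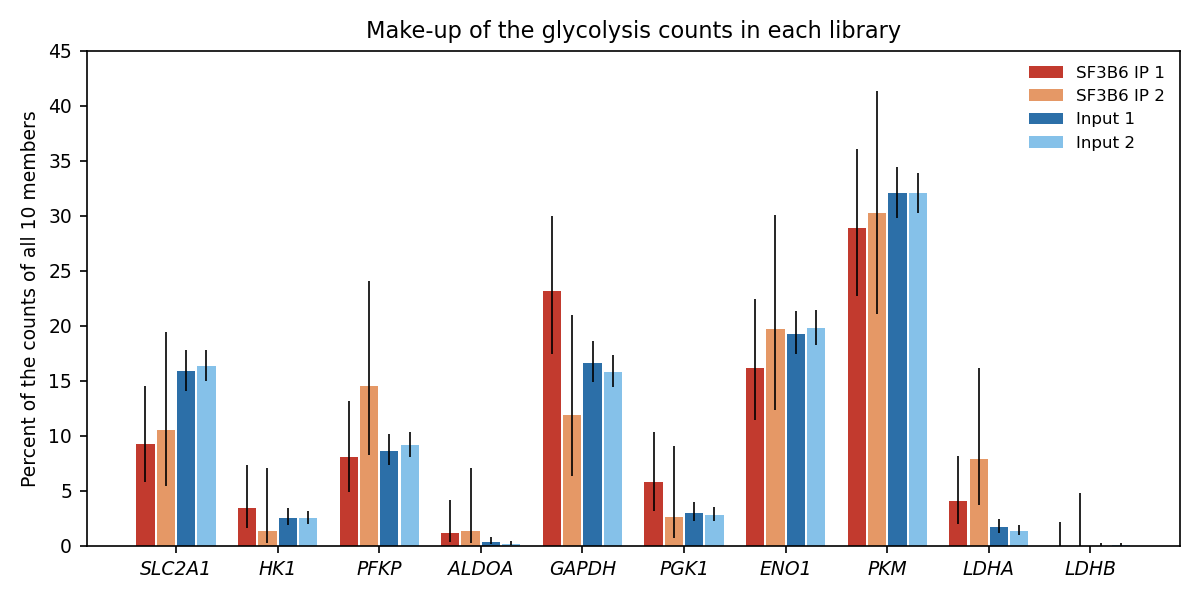
Percent of the counts of all 10 members that each member held, in the 4 libraries, with Wilson 95% intervals for counting error. SLC2A1 took 9.25% and 10.5% in IP against 15.8% and 16.3% in input, LDHA 4.05% and 7.89% against 1.69% and 1.35%, and PKM was the top member everywhere.

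Levels per length were compared within a library by the authors' FPKM, whose library totals differ between the groups. GAPDH was the highest member in all 4 libraries, at 22.03 and 7.49 FPKM in IP and 50.4 and 65.2 FPKM in input. ENO1 and PKM took the next places in every library and changed places between replicates. In IP they were at 7.08 and 5.74 FPKM for ENO1 and 7.70 and 5.35 FPKM for PKM. In input they were at 26.8 and 37.5 FPKM for ENO1 and 27.2 and 37.0 FPKM for PKM. These 2 neighbours do not differ beyond their spread.

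SLC2A1 and PFKP came next per length. SLC2A1 was at 3.19 and 2.41 FPKM in IP, against 17.4 and 24.4 FPKM in input, and PFKP at 2.39 and 2.84 FPKM in IP, against 8.11 and 11.7 FPKM in input. SLC2A1 was thus above PFKP in both inputs, while in IP their order turned between the libraries. LDHA was at 1.53 and 1.98 FPKM in IP, against 2.03 and 2.21 FPKM in input. PGK1 was at 2.43 and 0.73 FPKM in IP, against 3.99 and 5.06 FPKM in input, and HK1 at 1.26 and 0.32 FPKM in IP, against 2.92 and 3.93 FPKM in input. LDHA was the lowest of these 3 in both inputs and, in SF3B6 IP 2, the highest. ALDOA was at 0.69 and 0.52 FPKM in IP, against 0.62 and 0.41 FPKM in input, and LDHB at 0.00 FPKM in all libraries except Input 2, at 0.13 FPKM.

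Set among 13464 nuclear protein-coding rows ordered by FPKM, GAPDH ranked 14th and 85th in the IP libraries, against 19th and 24th in the inputs. SLC2A1 ranked 633rd and 622nd in IP, against 139th and 154th in input. LDHA ranked 1644th and 816th in IP, against 2515th and 3207th in input. Outside the best covered genes, ranks in IP rest on few counts.

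Processed pseudogenes, copies of a messenger pasted back into the genome, abound for some members and can share reads with them. RefSeq names 87 such copies by the symbols of the members, 65 of them of GAPDH and 6 of LDHA, and 0 of SLC2A1, HK1 or PFKP. Of these copies 6 have a row in the tables, with 0 IP and 9 input counts in all. GAPDHP43, GAPDHP61 and ENO1P3 had the most, at 2 input counts each, and they are named together because they tie. How reads with several matches were counted was not given in the sources used here, so the levels of GAPDH, ENO1, PKM, PGK1, ALDOA, LDHA and LDHB are uncertain to that extent.

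The neighbouring pathways held 104 further listed genes, of which 90 have a row and 29 were tested. Of these 29, 0 were higher and 1, BSG, was lower, beside 2.70% and 1.36% of all tested genes. Their median log2 fold change was -0.18, and 20 of the 29 lay below 0, against 53.4% of all genes. Both IP libraries lay below both inputs for 11 of them (28.5% of all genes) and above for 1 (20.9%). The median was -0.38 over 3 other transporters and hexokinases, 0.10 over 5 other glycolytic enzymes, -0.08 over 4 regulators and -0.50 over 2 genes of lactate and pyruvate transport. It was -0.18 over 6 genes of the pentose phosphate pathway, -0.52 over 3 of gluconeogenesis and glycogen and -0.26 over 5 of the citric acid cycle. The pyruvate dehydrogenase complex had 1 tested gene, at -0.14.

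Of the regulators, HIF1A, the oxygen-sensing factor that raises glycolytic genes, was at -0.93 ± 0.61 (edgeR adjusted p = 0.481) and MYC, another activator of them, at 0.71 ± 0.50 (0.521). HIF1A drew 4 and 1 counts in IP and MYC 10 and 2, and MYC was at -0.51 without SF3B6 IP 1. TKT, transketolase of the pentose phosphate pathway, stood at 242 and 218 CPM in IP, against 383 and 416 CPM in input (-0.78 ± 0.33, adjusted p = 0.223). H6PD, which makes NADPH in the endoplasmic reticulum, was at -0.03 (adjusted p = 0.980).

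In storage and oxidation the named genes did not pass either. PYGB, glycogen phosphorylase, was at -0.52 ± 0.27 (edgeR adjusted p = 0.338) and PC, pyruvate carboxylase, at -0.54 ± 0.37 (0.499). OGDH and SDHA of the citric acid cycle were at -0.26 (adjusted p = 0.885) and -0.49 (0.763). PDP2, a phosphatase that activates pyruvate dehydrogenase, was at -0.14 (0.967), and PDHB, a subunit of that enzyme, had too few counts to test.

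**Figure D4:**
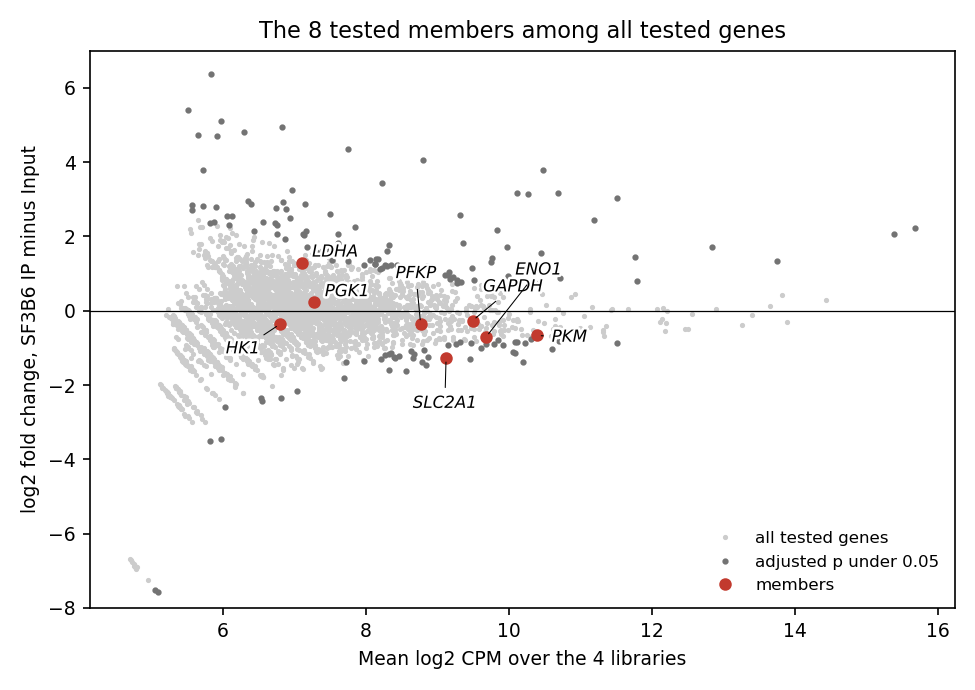
Log2 fold change, SF3B6 IP minus Input, against mean log2 CPM over the 4 libraries for the 3668 tested genes (light grey), those with an adjusted p under 0.05 (dark grey) and the 8 tested members (red). SLC2A1 lies at -1.27, the 248th lowest of these genes, and LDHA at 1.29, the 165th highest, with fewer counts.

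Across settings the members kept much of their order. SLC2A1 was the lowest tested member in 13 of 14 settings, the main one included, and HK1 in the other, without SF3B6 IP 1. LDHA was the highest in all 13 settings in which it was tested. Set against the median of all genes in the same setting, SLC2A1 lay from -1.47 to -0.51 and LDHA from 0.86 to 2.04. The settings share libraries, so this order is no independent repeat.

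**Figure D5:**
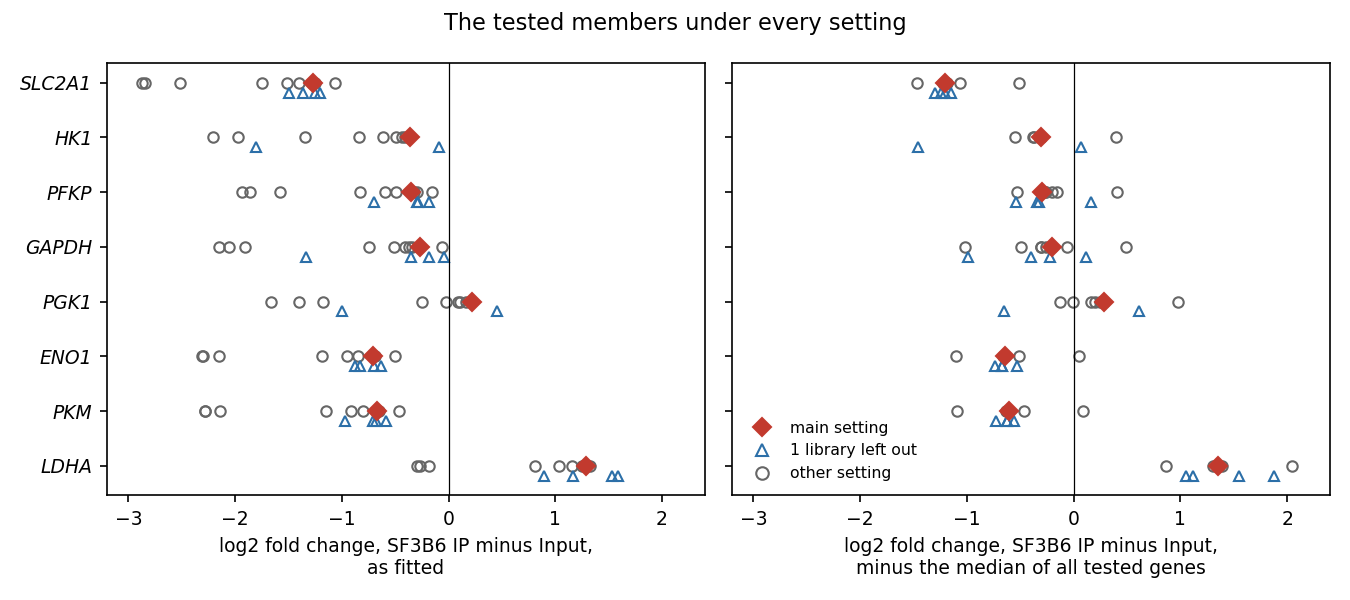
Log2 fold change, SF3B6 IP minus Input, of the 8 tested members under each setting, as fitted (left) and minus the median of all genes tested in that setting (right); red diamonds mark the main setting, blue triangles fits with 1 library left out and grey circles the other settings. On the right, SLC2A1 lies left of 0 and LDHA right of 0 in every setting that tested them, while the other 6 members lie on both sides, ENO1 and PKM in 1 of 14 settings on the right.

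The totals behind the FPKM table gave a different picture of size. Relative to Input 1, these totals came to 0.357 and 0.236 for SF3B6 IP 1 and 2, while counts in genes came to 0.175 and 0.0959. On this scale 2098 of 3668 genes were lower (57.2%), and so were 6 of the 8 members, with PGK1 (-1.40, edgeR adjusted p = 0.0583) and LDHA (-0.30, 0.670) not past the threshold. The median of all genes was -1.65 there, and SLC2A1 stood at -2.87, ENO1 at -2.31 and PKM at -2.28.

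Genes with a profile near that of SLC2A1 were sought over the 4 libraries among 486 tested genes of similar level, by the distance between centred log2 CPM values. FAT1, an atypical cadherin, was the nearest (distance 0.10, log2 fold change -1.18), followed by MYDGF, a secreted growth factor (0.17, -1.17), and HCFC1, a transcriptional coregulator (0.19, -1.08). Nearest to the mean of the 8 tested members, among 844 genes, were AP2A1, a subunit of the AP-2 clathrin adaptor (0.07, -0.25), EIF5A, a translation factor (0.07, -0.28), and KMT2D, a histone methyltransferase (0.08, -0.25). With 4 libraries such nearness describes level differences only.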

How the data were processed

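RNA of 2 SF3B6 IP and 2 Input libraries was analysed, grouped by title. The authors deposited raw read counts per gene, and FPKM values of the same genes with 2 decimals. HISAT2, HOMER and hg38 are named in the submitters' processing notes, without roles or versions, and the counter, strand setting and treatment of multiply mapped reads were not given in the sources used here. Coordinates are RefSeq's (GRCh38.p14).

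Counts were tested with edgeR 4.0.16 (R 4.3.3; default expression filter, TMM, group as the one term, Benjamini-Hochberg at 0.05), checked on simulated data. In that check 19, 8, 17 and 47 of 50 genes were recovered at folds, IP over input, of 0.25, 0.5, 2 and 4. Of each 50, the filter kept 38, 49, 49 and 50. Most falls to 0.5 were thus missed. Standard errors come from the fold change and F statistic. Alternatives were library totals, upper quartile scaling, totals implied by the FPKM table (from genes with at least 20 counts), DESeq2 1.42.0, other count filters, a replicate block, limma 3.58.1 on log2(FPKM + 1) and log2(FPKM + 0.1), and each library left out. No pair was 1 library deposited again: their counts differed beyond sampling (chi-square per degree of freedom 4.33 for IP, 1.72 for input). The 10 members and the gene lists were chosen with earlier results of these data known. Named beside the members were the 2 genes of each list with the highest input FPKM, all past the threshold, GPI, TPI1, PGAM1, pseudogenes named after members, and the 3 profiles nearest to SLC2A1 and to the members' mean (Euclidean distance of centred log2 CPM among genes within 1 log2 unit of level; prior count 2). ATP6V0CP4 and LOC112694756 were named after their values were seen. P-values set the difference between the groups against the spread of libraries within a group. With 2 libraries a group, that spread was estimated partly from the other tested genes.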

Additional observations from a re-analysis of the deposited data

How the results depend on the processing

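The numbers of genes past the threshold depended on the setting, against 99 higher and 50 lower over all genes with TMM. With library totals 56 were higher and 90 lower, and with the totals implied by FPKM values 17 were higher and 2098 lower. With no count filter 50 were higher and 163 lower, and with a minimum of 50 counts in 2 libraries 80 were higher and 25 lower. DESeq2 gave 37 higher and 2 lower of 2032 genes with an adjusted p. On log2(FPKM + 1) limma gave 27 higher and 2273 lower, and on log2(FPKM + 0.1) it gave 15 higher and 1675 lower. Leaving out 1 library gave 26 to 94 higher and 5 to 70 lower, with fewer samples and other genes tested. Members lower numbered 3 with library totals, with upper quartile scaling and with no count filter, 6 with the FPKM totals, 7 and 6 in the limma fits, 0 with DESeq2, and 0 to 1 with 1 library left out. The median of all genes, -0.06 with TMM, was -0.31 with library totals, -0.19 with upper quartile scaling, -1.23 with no count filter and -1.65 with the FPKM totals.

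Some log2 fold changes changed sign, and the cause was not tested. PGK1 was -0.027 with library totals, -1.40 with the FPKM totals, -0.25 with no count filter, -1.17 and -1.66 in the limma fits, and -0.996 to 0.46 with 1 library left out. LDHA was -0.30 with the FPKM totals and -0.18 and -0.27 in the limma fits. TPI1 was -0.15 with library totals, -0.039 with upper quartile scaling, -1.49 with the FPKM totals, -0.38 with no count filter, -1.30 and -1.46 in the limma fits, and -0.15 to 0.21 with 1 library left out. GPI was -0.15, -0.037, -1.51, -0.38, -1.05 and -1.499 in the same settings and -0.31 to 0.15 with 1 library left out. PFKL was -1.11 with the FPKM totals, -0.99 and -1.32 in the limma fits, and -0.64 to 0.76 with 1 library left out. MYC was -0.91, -0.80 and -1.14 in the same settings, and -0.51 to 0.94 with 1 library left out. PDP2 was 0.027 with DESeq2 and -1.62 to 0.80 with 1 library left out. H6PD was 0.18 with the minimum of 50 counts, 0.029 with the replicate block, 0.020 with DESeq2 and -0.18 to 0.15 with 1 library left out. OGDH was -0.77 to 0.091, and PGAM1 -0.93 to 0.51, with 1 library left out, and PGAM1 was 0.0057 with the replicate block and 0.012 with DESeq2. In all, 245 of the values under alternatives kept their direction and side of the threshold, 61 came to pass it, 27 no longer passed it and 41 changed sign.

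Samples that share a number did not deviate together (correlation of deviations 0.0041 over 3350 genes). With few IP counts for most genes, counting error could hide a shared deviation, so this check cannot tell whether the numbers pair the samples. With the replicate number as a block 68 genes were higher and 22 lower, and SLC2A1 was at -1.28 with an adjusted p of 0.00736.

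Depth limited the IP side most. HK1, PGK1 and LDHA rest on 7, 12 and 13 IP counts in all, and ALDOA and LDHB could not be tested. With 2 libraries a group, leaving out SF3B6 IP 1 moved GAPDH to -1.33, HK1 to -1.80 and PGK1 to -0.996. The background of the precipitation was not measured here.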
